A study of Rattus norvegicus with 7 samples.

Results

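The mucin genes were followed here in rat meibomian gland, the lipid-secreting gland of the eyelid, with and without ultraviolet B (UVB) irradiation of the lid. Of 8 mucin genes named for this comparison, 5 were read by symbol from the deposited tables, out of 17246 genes: Muc1, Muc5b, Muc13, Muc15 and Muc20. The other 3, Muc4, Muc5ac and Muc16, were not analysed here. All animals were wild-type female Sprague-Dawley rats aged 3 months. The 4 control libraries, called control a to d, came from rats labelled as having no treatment. The 3 UVB libraries, called UVB a to c with letters that pair no libraries, came from rats whose shaved upper lids received 300 mJ/cm2 in 5 min per day for 5 days. The dissected gland was frozen and sequenced as bulk RNA, so the libraries also hold duct, conjunctival, epidermal and other cells that came with it. The labels do not say whether the controls were shaved, or whether each library came from a separate animal, and the p-values below measure only the spread between these libraries.

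Mucins are large glycoproteins whose serine- and threonine-rich stretches carry dense O-linked sugar chains. Secreted gel-forming mucins such as Muc5ac and Muc5b make mucus, which goblet cells of the conjunctiva supply to the tear film. Membrane-bound mucins such as Muc1, Muc4, Muc13, Muc15, Muc16 and Muc20 stand on the apical cell surface, where those of the cornea and conjunctiva form part of the glycocalyx that holds the tear film and keeps microbes off. The meibomian gland meets this mucosal surface at its orifice, on the lid margin.

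Library totals ran from 20680237 to 28784941 counts. All 10 listed markers of meibocytes, the lipid-producing cells, were measured. Their summed level was 43900 to 53190 TPM (a share of all transcripts, corrected for length) in controls and 40550 to 47210 TPM after UVB. Most of it was Scd and Awat2, at means of 27690 and 11610 TPM in controls. Of the markers of conjunctival epithelium, Krt13 and Krt4 were abundant as well, at means of 3597 and 1180 TPM in controls. The other measured markers of that list were far lower, with control means from 1.47 TPM (Krt18) to 115 TPM (Cldn4). The measured genes of a goblet cell and mucus granule list summed to 228 to 285 TPM in controls, most of it Qsox1 (188 TPM), Fcgbp (30.8 TPM) and Tspan8 (19.5 TPM), while Agr2 averaged 1.28 TPM and Tff1 had at most 4 counts in any library.

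Among the 5 measured members Muc15 had the highest TPM in every library, Muc20 came next, and the other members were near the detection limit. Mean levels in controls were 60.3 ± 5.83 TPM for Muc15, 18.6 ± 2.87 TPM for Muc20, 0.183 ± 0.0985 TPM for Muc1 and 0.0550 ± 0.00577 TPM for Muc5b (SD, n = 4). After UVB they were 63.3 ± 2.97 TPM for Muc15, 6.45 ± 1.34 TPM for Muc20, 0.333 ± 0.275 TPM for Muc1 and 0.277 ± 0.203 TPM for Muc5b (SD, n = 3). Muc15 and Muc20 stood far apart in both groups. In controls every Muc1 value lay above every Muc5b value, but after UVB the values of these genes overlapped. Muc13 was listed at 0 in 6 libraries.

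**Figure D1:**
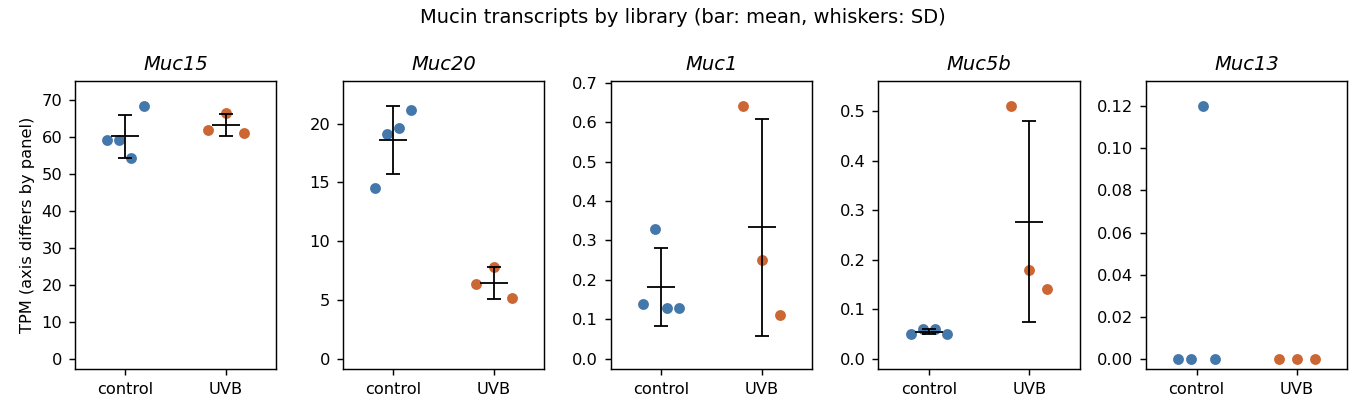
TPM as deposited (vertical axis, a separate linear scale for each gene) of the 5 measured mucin genes in the control (blue) and UVB (orange) libraries, 1 point per library, with the mean and SD except for Muc13. Muc20 lies between 14.5 and 21.2 TPM in controls and between 5.14 and 7.82 TPM after UVB, Muc5b is highest in 1 UVB library, and the points of Muc15 overlap.

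Muc20 fell after UVB. This small membrane-bound mucin is known from kidney and from the corneal and conjunctival epithelium, and was described as a partner of the growth factor receptor Met. In controls a, b, c and d it measured 14.5, 19.1, 19.6 and 21.2 TPM, from 310, 393, 533 and 475 counts. In UVB a, b and c it measured 6.38, 7.82 and 5.14 TPM, from 125, 197 and 123 counts. Every UVB library lay below every control, and control a was the lowest control. Groups that did not overlap in CPM were found for 26.6% of all tested genes. On the scale of TMM-scaled CPM, which sets counts against library size, the mean went from 17.9 ± 2.45 (SD, n = 4) to 6.10 ± 1.45 (SD, n = 3), which is 2.93-fold lower. The log2 fold change was -1.55 (SE 0.18, 95% interval -1.95 to -1.16), with an adjusted p of 0.0023 in edgeR's quasi-likelihood test over 13709 genes. Of those genes 924 were called lower (an adjusted p under 0.05), which is 6.74%, and 79 had a more negative log2 fold change than Muc20. In bulk tissue, fewer cells that express the gene and less RNA per cell cannot be told apart.

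The stretch upstream of Muc20 is shown because this is the mucin with the best counted change. RefSeq's promoter tables, in build GRCr8, had an entry for 3 of the 5 measured members. For Muc20 the entry covers the plus strand of chromosome 11, and the part from 250 to 51 bases before the transcript start lies at chr11:81492641-81492840.

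Muc20 upstream: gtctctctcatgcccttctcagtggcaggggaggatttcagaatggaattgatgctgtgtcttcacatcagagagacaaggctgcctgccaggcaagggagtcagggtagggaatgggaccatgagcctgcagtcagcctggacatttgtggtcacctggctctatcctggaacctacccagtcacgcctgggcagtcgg

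The sequence is in lower case throughout because none of 4 motifs searched on both strands was in it: the AP-1 motif TGANTCA, the GC box GGGCGG, the CCAAT box CCAAT and the TATA box TATAAA. Over the same window of 33469 promoters, 5.22% held the AP-1 motif, 24.2% the GC box, 28.8% the CCAAT box and 9.98% the TATA box. Bases nearer to the transcript start than 51 were not searched, so a motif there, a TATA box included, would have been missed. The GC content of the Muc20 window was 56.5%, against a median of 51.0% over all windows. These matches describe letters only, and the reads were processed on another build, rn7.

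Muc15 did not differ by this test. It encodes a cell surface mucin that was first purified from the membrane of milk fat globules. The 4 controls measured 59.3, 59.2, 54.5 and 68.4 TPM, and UVB a, b and c measured 61.9, 66.7 and 61.2 TPM. The groups overlapped, with the highest and the lowest value both in controls. The log2 fold change was 0.063 (SE 0.089, with an adjusted p of 0.683 from edgeR), and its 95% interval ran from -0.14 to 0.26. With 1110 to 1527 counts per library, Muc15 was among the better counted genes, above 71.8% of those tested in mean log2 CPM. In RefSeq's gene table the span of Muc15 overlaps that of Ano3, which was not analysed here. The handling of strand is not given in the sources used here. All counts of Muc15 were whole, and whether reads of Ano3 were counted for Muc15 was not tested.

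Within each library, Muc20 thus changed against Muc15. The ratio of Muc20 to Muc15 in TPM was 0.244, 0.324, 0.360 and 0.309 in controls a to d and 0.103, 0.117 and 0.0840 in UVB a to c. The controls averaged 0.309 ± 0.0484 (SD, n = 4) and the UVB libraries 0.101 ± 0.0167 (SD, n = 3; exact two-sided permutation test, p = 0.0286, the smallest that the 35 splits of 7 libraries allow). This ratio does not depend on how libraries are scaled. It was not among the tests planned beforehand. It is built from the Muc20 and Muc15 values given above, so its p-value is no separate support for the fall of Muc20. Muc15 made up 76.2% ± 2.92 (SD, n = 4) of the summed TPM of the 5 measured members in controls and 90.0% ± 1.64 (SD, n = 3) after UVB. The sum itself was 74.0 to 89.8 TPM in controls and 66.6 to 74.9 TPM after UVB, and overlapped.

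Muc5b rose after UVB from a very low level. It encodes a gel-forming mucin of airway and salivary mucus. Controls a to d held 9, 10, 13 and 10 counts, or 0.420, 0.467, 0.448 and 0.427 CPM. UVB a held 82 counts (3.89 CPM), UVB b 37 counts (1.43 CPM) and UVB c 28 counts (1.08 CPM). The controls were nearly equal and every UVB library lay above them, with UVB a well above UVB b and UVB c. For 26.6% of all tested genes the groups did not overlap in CPM. Control libraries averaged 0.441 ± 0.0211 CPM (SD, n = 4) and irradiated ones 2.13 ± 1.53 CPM (SD, n = 3), which is 4.84-fold higher. The log2 fold change was 2.24 (SE 0.46, 95% interval 1.21 to 3.27, adjusted p of 0.0158 from edgeR). Of all tested genes 6.30% were called higher, and 34 had a larger log2 fold change. Without UVB a the difference was 2.85-fold, with a log2 fold change of 1.50 (SE 0.31, with an adjusted p of 0.0248 from edgeR). Even after UVB the highest Muc5b level, 0.510 TPM, was far below that of Muc20. In CPM without TMM scaling, on which the low-count filter was set, Muc5b reached the filter level of 0.429 in 3 controls and in all 3 UVB libraries.

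Muc1 and Muc13 were too scarce for the test. Muc1, the widely expressed membrane mucin of glandular epithelium, had 4, 10, 5 and 4 counts in controls a to d and 18, 9 and 4 in UVB a to c. Control libraries averaged 0.249 ± 0.145 CPM (SD, n = 4) and irradiated ones 0.452 ± 0.361 CPM (SD, n = 3; exact two-sided permutation test, p = 0.371). The groups overlapped, and UVB a was again the highest library. Without UVB a the means were 0.249 and 0.251 CPM, so a change of Muc1 was not detectable at this depth. Muc13, a membrane mucin best known from the gut, was listed at 4.62 counts in control c and at 0 in the other 6 libraries, where 3 counts, the limit that a count of 0 allows, would be 0.116 to 0.142 CPM. The value of 4.62 is not whole and so is an estimate, while all counts of the other members were whole.

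Of the 5 measured members, 3 passed the low-count filter, and of these Muc5b was called higher and Muc20 lower. Over all 13709 tested genes 13.0% were called. That background was 1787 genes, and it fell to between 851 and 1214 when any library except control a was left out, while both member calls held. The tested members spanned most of the range of expression, since 34.8% of genes lay below Muc20 and 5.90% below Muc5b in mean log2 CPM.

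**Figure D2:**
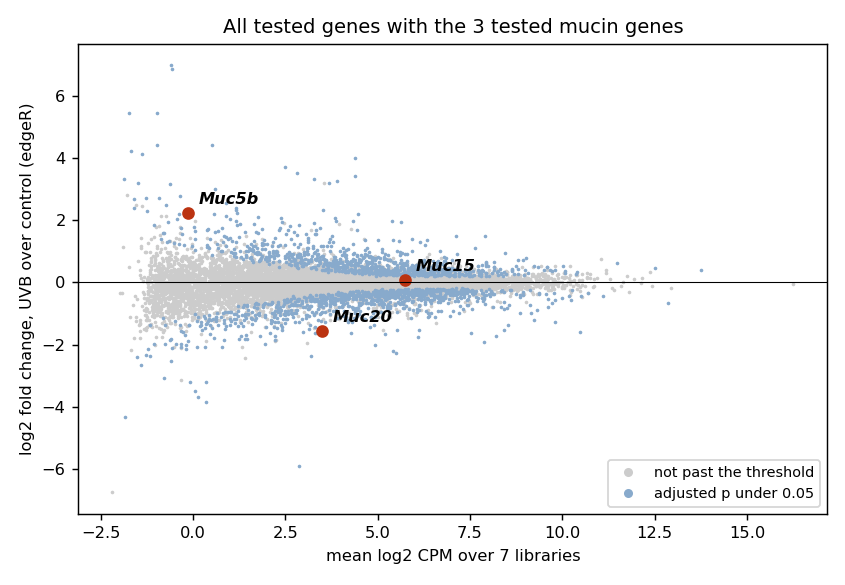
Each point is 1 of 13709 tested genes, with the mean log2 CPM over 7 libraries on the horizontal axis and edgeR's log2 fold change of UVB over control on the vertical axis; blue points passed the adjusted threshold and grey points did not. The red points show Muc5b at 2.24 among scarce genes, Muc20 at -1.55 and Muc15 at 0.063.

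Since Muc5b is a product of goblet and other mucous cells, their genes were examined beside it. Of 18 listed goblet cell and mucus granule genes, 14 were measured and 9 tested. Of these 1 was called lower and 0 higher (11.1% called, against 13.0% over all tested genes). Their median log2 fold change was 0.028, against -0.0058 over all tested genes. The gene called was Qsox1, a sulfhydryl oxidase of the secretory pathway, which fell from 188 ± 21.9 TPM (SD, n = 4) to 130.5 ± 10.5 TPM (SD, n = 3), with a log2 fold change of -0.53 (SE 0.090, with an adjusted p of 0.00797 from edgeR). Fcgbp, a mucus protein that binds IgG and whose counts were not whole in 6 libraries, had a log2 fold change of -1.29 (SE 0.48, with an adjusted p of 0.127 from edgeR), and Tspan8, a tetraspanin of epithelia, one of 0.028 (SE 0.19, adjusted p = 0.940). UVB a, the library with most Muc5b, also had the highest value of Spdef, Foxa1, Agr2 and Clca1 among the 7 libraries, 4 of the 9 tested genes of the list. The same held for 4 of 9 conjunctival genes, for 3 of 4 blood vessel genes (Cdh5, Kdr and Vwf) and for 16.6% of all tested genes. It held for 1 of 2 serous gland genes and for 0 of the 10 meibocyte, 7 epidermal, 5 duct and wound epithelium, 8 leukocyte and 6 skeletal muscle genes tested. In the other pathway lists the share was 13.3% (membrane mucin partners) to 30.8% (O-glycan initiation). Foxa1 and Clca1 were scarce, with means of 12.1 and 11.9 counts, and were not called (edgeR adjusted p = 0.344 and 0.362). Agr2, a disulfide isomerase needed for mucin folding, measured 0.327, 0.980, 0.276 and 0.897 CPM in controls a to d and 4.93, 1.01 and 1.35 CPM in UVB a to c. Its log2 fold change was 1.96 (SE 0.66, with an adjusted p of 0.0894 from edgeR), and that of Spdef, the transcription factor of goblet cell maturation, was 0.97 (SE 0.34, adjusted p = 0.0930). Of the alternatives fitted, Agr2 passed only with DESeq2 (adjusted p = 0.0171), and without UVB a its log2 fold change was 0.94. Tff1 and Tff3, trefoil peptides stored with mucins, had at most 6 counts in a library.

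**Figure D3:**
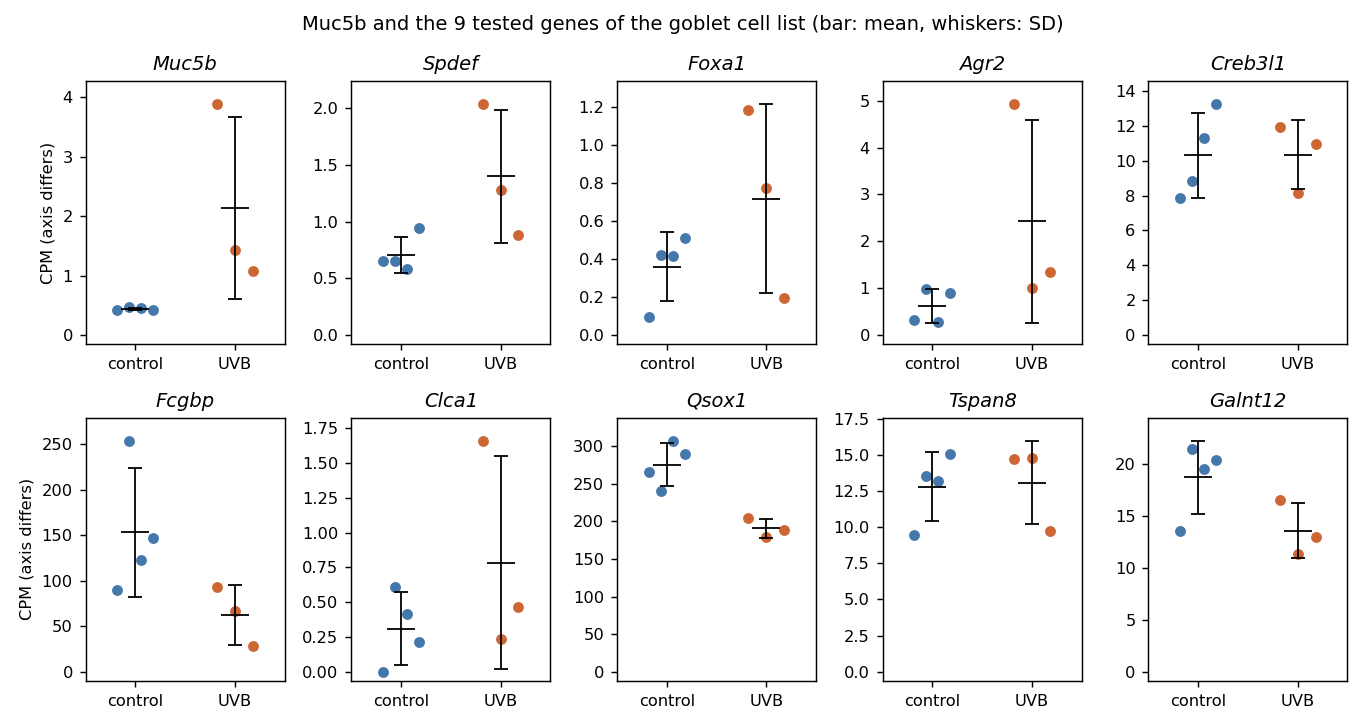
CPM (vertical axis, a separate linear scale for each gene) of Muc5b and the 9 tested genes of the goblet cell list in the control (blue) and UVB (orange) libraries, 1 point per library, with mean and SD. The highest point of Muc5b, Spdef, Foxa1, Agr2 and Clca1 is UVB a, at 3.89 CPM for Muc5b and 4.93 CPM for Agr2, while Qsox1 is lower in all 3 UVB libraries.

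Of 10 listed markers of conjunctival epithelium 9 were measured and tested, and 0 were called by edgeR; 1 had an unadjusted p under 0.05, and DESeq2 called 1 and limma-voom 0. Their summed level was 4139 to 5576 TPM in controls and 5032 to 6595 TPM after UVB, most of it Krt13 and Krt4. Krt4 and Krt13, the keratins of the conjunctival surface, were highest in UVB a, at 1500 and 4229 CPM. Krt8, a keratin gene of simple epithelia, measured 5.65 to 13.3 CPM in controls and 24.0, 8.01 and 3.51 CPM in UVB a to c, and the water channel gene Aqp5 was also highest in UVB a, at 4.98 CPM. Both overlapped between groups. Krt7, another simple epithelial keratin gene, measured 28.3, 41.0, 40.9 and 40.5 CPM in controls a to d and 24.8, 32.9 and 18.4 CPM in UVB a to c, with a log2 fold change of -0.57 (SE 0.21, with an adjusted p of 0.114 from edgeR). It was the gene that DESeq2 called (adjusted p = 0.0324), and it also passed in edgeR without UVB b (-0.80, adjusted p = 0.0476). Of 10 markers of lacrimal or other serous glands, 5 were measured, of which Bpifa2 was at 0 in every library and Bpifa1 and Scgb1a1 had at most 2 counts. The summed level of that list was 90.2 to 344 TPM in controls and 78.4 to 121 TPM after UVB, nearly all of it Lyz2, a lysozyme gene that macrophages also express (85.7 to 339 TPM in controls). Bhlha15, a transcription factor gene of serous secretory cells, lay above all controls in every UVB library, 1.37-fold higher in mean CPM. Groups did not overlap in CPM for 26.6% of all tested genes. The log2 fold change of Bhlha15 was 0.46 (SE 0.14, with an adjusted p of 0.0544 from edgeR), and DESeq2 called 1 gene of the list. The part of these cell types in the levels of Muc20 and Muc5b was not tested.

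The enzymes that start O-linked chains on mucins, the polypeptide N-acetylgalactosaminyltransferases, included the largest called change among the pathway lists. Of 19 listed genes 17 were measured and 13 tested. Of these 1 was called higher and 2 lower (23.1% called, against 13.0% over all tested genes), and the median log2 fold change was -0.12. Galnt6 rose from 2.07, 2.06, 1.44 and 1.88 TPM in controls a to d to 6.10, 6.23 and 7.61 TPM in UVB a to c. The UVB libraries were close to each other and all far above the controls, a 3.55-fold difference in mean CPM with a log2 fold change of 1.83 (SE 0.16, with an adjusted p of 0.00095 from edgeR). Galnt3 went from 18.05 ± 1.59 TPM (SD, n = 4) to 14.1 ± 0.850 TPM (SD, n = 3), with a log2 fold change of -0.36 (SE 0.083, with an adjusted p of 0.0227 from edgeR). Galnt18 had a log2 fold change of -0.42 (SE 0.11, with an adjusted p of 0.0381 from edgeR). Both lay near the threshold. Galnt3 lost its call without control b, control c, UVB a or UVB b (adjusted p 0.0520 to 0.0747), with log2 fold changes of -0.41 to -0.32 over all 7 omissions. Galnt18 lost it without any 1 library except UVB c (adjusted p 0.0572 to 0.113), with -0.52 to -0.32 over all 7, and also when scaled by library size alone (-0.41, adjusted p = 0.0588). The number called was 1 without control b, control c or UVB b, and Galnt6 was then the gene left.

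Of 18 listed genes of enzymes that extend and cap these chains, 15 were measured and 14 tested. Of these 1 was called higher and 1 lower (14.3% called, against 13.0% over all tested genes), with a median log2 fold change of 0.017. Fut2, which adds the terminal fucose of secreted H antigen, rose from 4.40, 3.18, 3.79 and 3.74 TPM in controls a to d to 6.54, 7.29 and 10.2 TPM in UVB a to c. Its groups did not overlap, as was the case in CPM for 26.6% of all tested genes, and UVB c was the highest. The log2 fold change was 1.04 (SE 0.17, with an adjusted p of 0.00736 from edgeR). Gcnt2, a branching enzyme of blood group I, fell from 11.7 ± 1.87 TPM (SD, n = 4) to 7.52 ± 1.34 TPM (SD, n = 3), with a log2 fold change of -0.65 (SE 0.15, with an adjusted p of 0.0257 from edgeR). That call was lost when control b, control c, control d, UVB b or UVB c was left out (adjusted p 0.0519 to 0.0829). The number of called genes in the list was 1 without control b, control c, control d or UVB b and 3 without control a. St6galnac2, a sialyltransferase acting on O-linked chains, measured 40.0 TPM in controls and 40.2 TPM after UVB on average, with a log2 fold change of 0.00039 (SE 0.077, with an adjusted p of 0.998 from edgeR); its counts were not whole in any library. The scarce B3gnt3, chosen after its values were seen, had a log2 fold change of -1.43 (SE 0.42, with an adjusted p of 0.0522 from edgeR), and it passed with DESeq2, with limma-voom and on log2(TPM + 1) over every gene above 0 (adjusted p 0.0357 to 0.0474).

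Proteins that bind, shed or signal with membrane mucins moved in both directions. Of 16 listed genes 15 were tested, and 3 were called higher and 2 lower (33.3% called, against 13.0% over all tested genes). Their median log2 fold change was -0.086. Cd44, the hyaluronan receptor, rose from 39.8 ± 4.68 TPM (SD, n = 4) to 64.3 ± 7.77 TPM (SD, n = 3), with a log2 fold change of 0.68 (SE 0.11, with an adjusted p of 0.0071 from edgeR). Msn, an ezrin family linker of membrane proteins to actin, rose with a log2 fold change of 0.48 (SE 0.11, with an adjusted p of 0.0247 from edgeR). Erbb3, a receptor of the EGF receptor family, fell by 0.30 on the log2 scale (SE 0.068, with an adjusted p of 0.0225 from edgeR). The other two, outside the rule for named genes, were the membrane protease gene Mmp14 (0.63, SE 0.14, adjusted p = 0.0272) and the gene of galectin-3, Lgals3 (-0.25, SE 0.068, adjusted p = 0.0404), a lectin that crosslinks membrane mucins. Cd44 was called in every alternative. Msn lost its call without control c, UVB a or UVB c (adjusted p 0.0647 to 0.0703) and Erbb3 without control c, control d, UVB a or UVB b (adjusted p 0.0534 to 0.0661). Mmp14 lost it without control b, control c, UVB a or UVB c (adjusted p 0.0556 to 0.0745) and Lgals3 without any library except control a (adjusted p 0.0616 to 0.125). Lgals3 also lost it when scaled by library size alone (-0.25, adjusted p = 0.0579) and on log2(TPM + 1) (-0.24, adjusted p = 0.0502). The number called was 1 without control c or UVB a, 2 without UVB c, and 3 without control b, control d or UVB b.

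Among 14 transcription factors of barrier and mucosal epithelia, all of them tested, 0 were called higher and 2 lower, with a median log2 fold change of -0.19. The share called, 14.3%, was near the 13.0% called over all tested genes. Gata6 went from 15.0 TPM in controls to 8.09 TPM after UVB on average, with a log2 fold change of -0.90 (SE 0.19, with an adjusted p of 0.0215 from edgeR). Elf3, an ETS factor of epithelial differentiation, went from 105.6 to 74.2 TPM, with a log2 fold change of -0.52 (SE 0.12, with an adjusted p of 0.0247 from edgeR). Klf4, a factor of barrier epithelia, averaged 141 TPM in both groups (log2 fold change -0.011, SE 0.13, edgeR adjusted p = 0.969). Gata6 lost its call without control c, control d, UVB a or UVB b (adjusted p 0.0517 to 0.0765) and Elf3 when control b, control c, control d, UVB b or UVB c was left out (adjusted p 0.0584 to 0.0842). The number called was 0 without control c or control d and 1 without control b or UVB a.

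Of 20 further mucins and sialomucins listed, 7 were measured and 5 tested, and 0 were called by edgeR. Of these 1 had an unadjusted p under 0.05, and DESeq2 and limma-voom called 0. The median log2 fold change was 0.013. Of the sialomucin genes among them, Cd164 averaged 295 TPM in controls and 253 TPM after UVB (log2 fold change -0.23, SE 0.12, edgeR adjusted p = 0.240). Cd34 averaged 24.7 and 29.2 TPM (0.23, SE 0.083, adjusted p = 0.0936), and the cell adhesion gene Mcam 31.1 and 31.6 TPM (0.013, SE 0.080, adjusted p = 0.937). Counts of Cd164 were not whole in any library. Mucl3 had at most 1 count in a library.

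**Figure D4:**
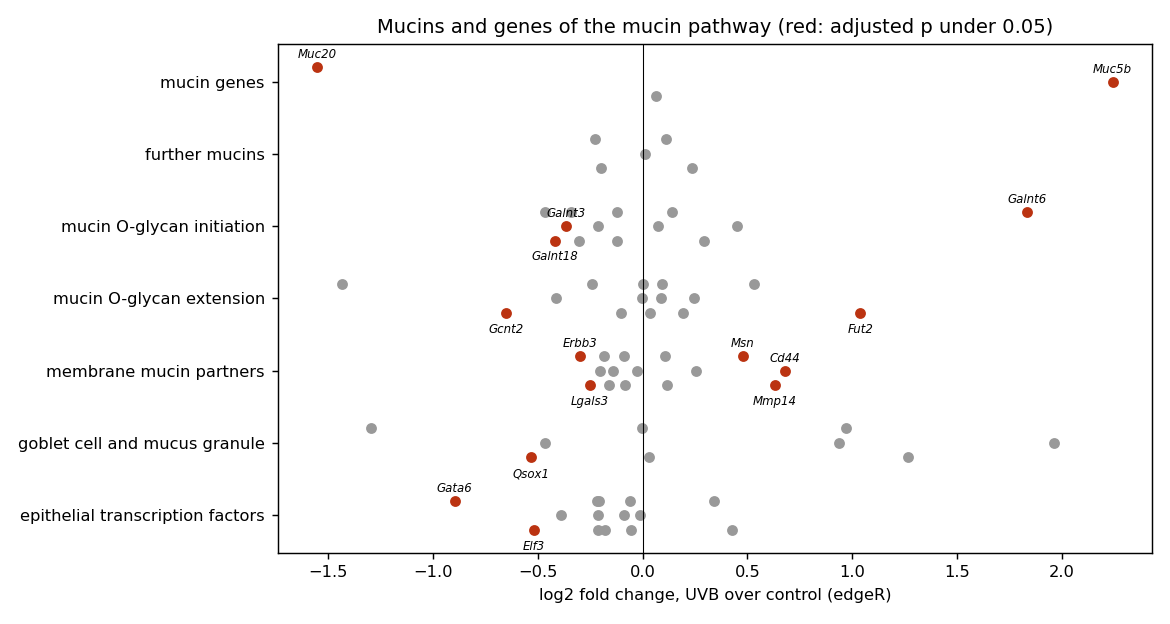
The edgeR log2 fold changes of UVB over control (horizontal axis) of the 3 tested mucin genes and the tested genes of 6 pathway lists (rows; the vertical spread within a row only separates points); red points with names passed the adjusted threshold. Muc5b at 2.24 and Galnt6 at 1.83 are the highest called points and Muc20 at -1.55 is the lowest called point.

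The genes beside the members on the chromosome, by their order in RefSeq's gene table of GRCr8, gave values for 3 of them. Tollip, next to Muc5b and an adaptor of innate signalling, averaged 89.3 TPM in controls and 78.05 TPM after UVB (log2 fold change -0.20, SE 0.074, edgeR adjusted p = 0.110), while Muc5b rose. Heg1, next to Muc13 and itself a mucin-like membrane protein of endothelium, rose from 6.63 ± 0.574 TPM (SD, n = 4) to 10.3 ± 1.53 TPM (SD, n = 3), with a log2 fold change of 0.62 (SE 0.099, with an adjusted p of 0.00658 from edgeR). Trim46, next to Muc1, had a log2 fold change of 0.16 (SE 0.39, with an adjusted p of 0.820 from edgeR). Both genes beside Muc20, one of which is Muc4, were not analysed here.

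The genes most like Muc20 in pattern were sought by Pearson correlation of log2 CPM over the 7 libraries, among genes with a mean count of at least 50. They were LOC102553715 (r = 0.994), Rtfdc1 (r = 0.994) and the calcium channel gene Ryr3 (r = 0.991). In each, every UVB library lay below every control, and groups did not overlap in CPM for 26.6% of all tested genes. Their log2 fold changes were -0.64 (SE 0.072), -0.22 (SE 0.054) and -1.14 (SE 0.18), with edgeR adjusted p-values of 0.0023, 0.0278 and 0.00702. The call of Rtfdc1 was lost when UVB a, UVB c or any control other than control a was left out (adjusted p 0.0675 to 0.0874). Counts of Rtfdc1 were not whole in 6 libraries. Those of Ryr3, with a mean of 67.8, were not whole in any library. For Muc15 the genes were Gdf11 (r = 0.972), Pop5 (r = 0.971) and Lysmd4 (r = 0.960), whose log2 fold changes of 0.085, 0.018 and 0.032 did not pass (edgeR adjusted p 0.807, 0.909 and 0.844). These correlations share libraries, depth and the difference between groups, and are a description of 7 points. The genes were chosen for their likeness to a mucin over these same libraries. How they changed after UVB therefore follows from that choice and is no separate support.

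**Figure D5:**
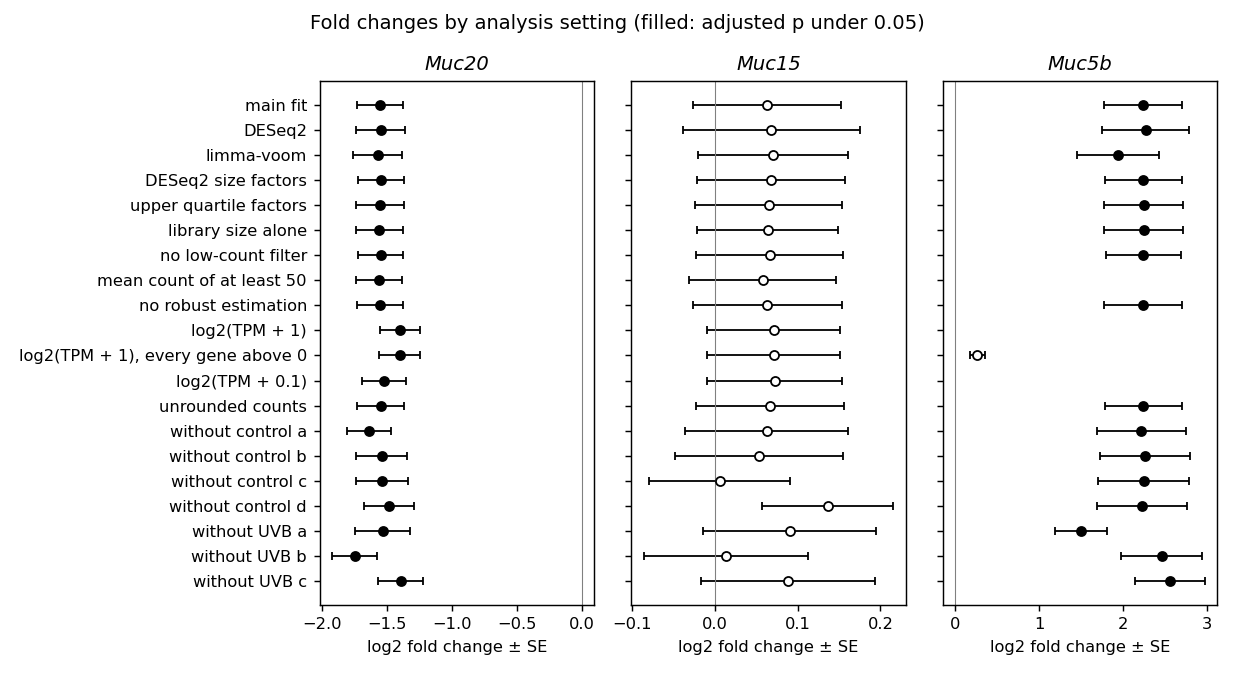
Log2 fold change with its SE (horizontal axis, a separate scale for each gene) of Muc20, Muc15 and Muc5b in the edgeR fit given here and in each alternative (rows); filled points have an adjusted p under 0.05. Muc20 lies between -1.75 and -1.39 and is filled in every row, Muc15 is open in every row, and Muc5b is open only on log2(TPM + 1) over every gene above 0, at 0.26.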

How the data were processed

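RNA of 4 control and 3 UVB glands was extracted with a column kit including DNase treatment and sequenced from Illumina libraries, per the labels' protocols. The submitters' processing notes name FastQC, Trimmomatic, DRAGEN, Picard and build rn7; roles, versions, annotation and strand are not given in the sources used here. The authors deposited expected counts (estimated counts per gene, 12.5% of values not whole) and TPM values, which sum to 82.0% to 84.1% of the full TPM total per library. Commas in gene names shift cells, and cells were therefore taken by position counted from the last column; 5 rows lacking a value were left out of each table. Column names tie each library to its group and to no single sample title.

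Expected counts were rounded and tested with edgeR 4.0.16 (R 4.3.3): quasi-likelihood test, robust, TMM factors, filterByExpr, Benjamini-Hochberg adjustment over all 13709 genes, threshold 0.05, two-sided. The SE was derived from the fitted log2 fold change and its F statistic (log2 fold change over the root of F). CPM values are TMM-scaled. Muc1 and the Muc20 to Muc15 ratio were tested by exact permutation over libraries (scipy 1.17.1). No pair of libraries of the same group agreed within sampling noise (chi-square per degree of freedom at least 10.9). The fits were tested on simulated data.

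The members and lists were chosen with earlier results of these data known. Named genes were the members; per pathway list the 3 called genes with the smallest p, filled up by mean TPM; chromosomal neighbours; and the 3 genes most like each member with a mean count of at least 50. Other goblet cell genes, cell type markers and genes outside this rule were chosen after their values were seen. Cell type lists are described by counts and summed TPM: the lists of meibocytes, conjunctiva and serous glands stand in the report and the others in the closing part. The fit was repeated with limma-voom (limma 3.58.1), DESeq2 1.42.0, 3 other scalings, 2 other filters, no robust estimation, 3 fits of log2 TPM, leaving out each library, and unrounded counts, the last chosen after seeing the data.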

Additional observations from a re-analysis of the deposited data

Results flagged for a closer look

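Within the controls, 2 of 32 values compared (the CPM of the members and named genes) had a single control standing apart; about 1 in 20, or 1.6, would by chance. For Muc1 this was control b, at 0.467 CPM (10 counts), while controls a, c and d lay between 0.171 and 0.187 CPM; the gap took up 0.947 of the range. Muc13 measured 0.172 CPM in control c and 0 in the other controls, a gap equal to the range. With 3 libraries, the UVB group was left out of this comparison.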

How the results depend on the processing

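No paired analysis was possible because no label links a control library to a UVB library. Column names give the group and a code, without the numbers of the sample titles. Muc20 kept its direction and its call in all 19 alternatives (-1.75 to -1.39, adjusted p up to 0.0106) and Muc15 stayed without a call (0.0058 to 0.14). Muc5b kept its call in 15 of 16 alternatives and lost it on log2(TPM + 1) over every gene above 0 (0.26, adjusted p = 0.128), where the pseudocount far exceeds its TPM. The other 3 of the 19 filtered it out: a mean count of at least 50, log2(TPM + 1) and log2(TPM + 0.1). In these and on log2(TPM + 1) over every gene above 0, the number of members called was 1 in place of 2; leaving out libraries gave 2 to 2. Leaving out 1 library moved the count of all called genes from 1787 to between 851 and 1898, of higher genes to between 421 and 927 and of lower genes to between 430 and 971; on log2(TPM + 1) over every gene above 0, 571 were lower. Dropping UVB a, b or c left 1214, 1047 or 1168 called genes, and dropping control b, c or d left 1097, 851 or 943. The Muc1 difference ran from 0.0020 to 0.352 CPM without 1 library. Signs turned only for uncalled genes: without 1 library Mcam ran from -0.028 to 0.079, St6galnac2 from -0.053 to 0.039, Tspan8 from -0.089 to 0.20, Klf4 from -0.11 to 0.16, Trim46 from -0.19 to 0.37, Gdf11 from -0.0065 to 0.19 and Pop5 from -0.014 to 0.050, and St6galnac2 was -0.0047 with a mean count of at least 50. With DESeq2, 2 genes of the goblet cell list and 5 transcription factors were called in place of 1 and 2. On log2(TPM + 1) over every gene above 0, 1 gene of O-glycan initiation, 2 membrane mucin partners and 1 transcription factor were called in place of 3, 5 and 2. The goblet cell list held 2 called genes without control a. The cause of these shifts was not tested. Depth limits Muc1, Muc5b and Muc13, and the limit that a count of 0 allows covers counting error only.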

Other observations

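Genes whose deposited names contain the word mucin were looked up after the values were seen. Parm1, a mucin-like gene regulated by androgen, averaged 28.8 TPM in controls and 37.8 TPM after UVB (log2 fold change 0.39, SE 0.15, edgeR adjusted p = 0.135). Timd2, a gene with immunoglobulin and mucin domains, had 31 to 58 counts in controls and 32, 62 and 190 in UVB a to c, so that UVB c carried most of its mean (log2 fold change 1.14, SE 0.49, edgeR adjusted p = 0.161). Emcn, a vascular sialomucin gene of the list of further mucins, averaged 19.2 and 15.5 TPM (-0.20, SE 0.11, adjusted p = 0.250). Gcnt3, the mucin-type branching enzyme of the list of O-glycan extension, averaged 6.24 and 8.97 TPM (0.53, SE 0.25, adjusted p = 0.206), and it passed in edgeR without UVB c (0.81, adjusted p = 0.0176).

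Counts for the other cell type lists stand beside 6.30% of all tested genes called higher and 6.74% called lower. Of 5 tested genes of the list named duct and wound epithelium, 3 were called higher (Krt14, Sprr1a and Sprr1b) and 0 lower. Their summed level was 10330 to 12360 TPM in controls and 12840 to 15300 TPM after UVB. Most of it was Krt14 (means of 5279 and 7338 TPM) and Krt5 (3564 and 3529 TPM). Krt17 had a log2 fold change of -0.043 (edgeR adjusted p = 0.88), and Krt6a, Krt6b and Krt16 of this list were not analysed here. Of 7 tested epidermal markers 0 were called higher and 2 lower, of 8 leukocyte markers 2 higher and 0 lower, of 6 skeletal muscle markers 0 higher and 1 lower, and of 4 blood vessel markers 2 higher and 0 lower. Of the 10 meibocyte markers 0 were called higher and 2 lower. The part of these cell types in the mucin levels was not tested.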
